A study of Canis lupus familiaris with 28 samples.

Results

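The effect of shRNAs against both p190 proteins was measured in cells that were not fully packed together. Messenger RNA of sub-confluent TR-T10 cells carrying inducible shRNAs against p190A and p190B was set against that of sub-confluent wild-type TR-T10 cells. The members were chosen by their labels alone: 2 libraries labelled with both shRNAs and 2 labelled wild type, all from experiment 1, 4 of the 28 samples of the series.

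TR-T10 is a dog cell line that carries a tetracycline repressor, so that doxycycline switches on the introduced constructs. The p190A shRNA came in a retrovirus selected with hygromycin and the p190B shRNA in a retrovirus selected with puromycin. The double knockdown line was made from the p190B knockdown line by adding the p190A shRNA under hygromycin, so it had passed both selections. Knockdown was induced with 4 µg/ml doxycycline for 3 days at low density, followed by another 3 to 5 days after replating. Nothing in the labels says whether wild-type cells received doxycycline, and the effects of the shRNAs, the selections and the drug cannot be told apart in the comparison. The other groups read here are the lines with the p190A shRNA alone (hygromycin) or the p190B shRNA alone (puromycin) and the confluent cultures of all these lines, 2 libraries each. From experiment 2, in which all cells were confluent, there are 3 libraries each of double knockdown with YAP5SA+S94A, double knockdown and wild type, and 2 distinct libraries labelled YAP5SA. The labels of that last group disagree on whether it also carried the shRNAs.

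p190A (ARHGAP35) and p190B (ARHGAP5) are related proteins that regulate the actin cytoskeleton and cell adhesion. The Hippo pathway, which holds back the coactivator YAP1 in crowded epithelial cells, is known to respond to both actin tension and cell density. YAP1 acts mainly through TEAD transcription factors. YAP5SA is a YAP1 form that LATS kinases cannot restrain, and with S94A it no longer binds TEAD. The comparison therefore asks how much of the effect of the double knockdown is already present without full cell contact.

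Each file listed 29884 Ensembl dog transcripts, and none of the identifiers could be paired with a gene name. For that reason the shRNA targets and cell type markers were not read, and transcripts are described by level, direction and behaviour in the other libraries. Reads on single transcripts numbered 13301816 and 17215544 in the double knockdown libraries and 12213169 and 13952665 in the wild-type libraries, against 10706716 to 17215544 over experiment 1. Nothing in the labels says that replicates were separate cultures, and the spread that the p-values rest on may be technical. The biological coefficient of variation was 0.128 over these 4 libraries. Reads aligned to several places made up 28.94% and 30.7% of all entries in the double knockdown libraries and 28.56% and 28.92% in the wild-type libraries, and the part of that difference in the results was not tested. Replicates of the sub-confluent p190A line stood further apart than those of the other sub-confluent lines, with a median absolute difference of 0.244 on the log2 scale.

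The double knockdown changed a large part of the transcriptome of sub-confluent cells, in both directions. Of 12845 transcripts tested, 4467 had an adjusted p under 0.05 (edgeR quasi-likelihood F-test, Benjamini-Hochberg adjustment over all transcripts tested), which is 34.8%. The double knockdown had 2146 transcripts called higher (16.7%) and 2321 called lower (18.1%). Scaled by library totals instead, it had 2393 higher and 2116 lower, so which direction had more calls depends on the scaling. Its libraries did not overlap those of wild type for 67.4% of the transcripts tested, whether or not the test called them. With 2 libraries a side, many transcripts without a change would also not overlap, so that share is a description. Leaving out 1 library changed the count to 2740 without double knockdown replicate 2, 4137 without double knockdown replicate 1, 2874 without wild-type replicate 1 and 3178 without wild-type replicate 2.

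Losses were deeper than gains, most clearly among transcripts of low level. Called rises had a median log2 fold change of 0.69 and called falls a median of -0.86, against 0.01 over all transcripts tested. At a fold change of at least 2 there were 559 rises and 978 falls, at 4 or more 127 rises and 357 falls, and at 8 or more 38 rises and 166 falls. Beyond 32-fold, 7 transcripts were higher and 53 lower in double knockdown cells. Very large fitted folds belong to transcripts with few or no counts on one side and depend on the prior count of the fit, so transcripts at 0 were also counted directly. Only 2 transcripts had at least 1 CPM (transcript reads scaled to a common library total) in both double knockdown libraries and no read in either wild-type library. These were at least 24.9-fold and 25.7-fold higher, taking 3 counts over the wild-type pair as the floor. In the opposite direction, 9 transcripts had at least 1 CPM in both wild-type libraries and no read in the double knockdown, and were at least 14.8-fold to 67.6-fold lower. With up to 3 summed reads allowed on the low side the counts were 7 and 28. Most expressed transcripts were shared, since 10835 reached 1 CPM in all 4 libraries.

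**Figure D1:**
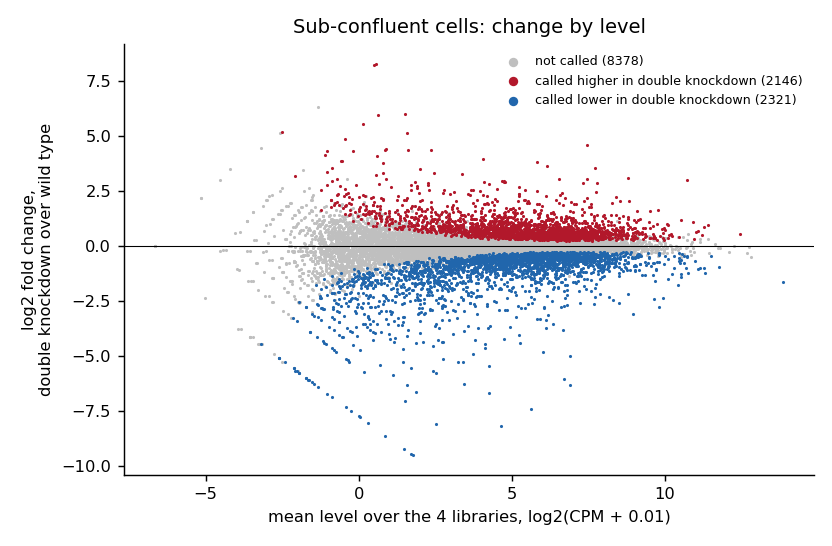
Each point is 1 of the 12845 transcripts tested. The x axis is its mean level over the 4 sub-confluent libraries, as log2(CPM + 0.01), and the y axis its log2 fold change, double knockdown over wild type. The 2146 called higher (red) and 2321 called lower (blue) lie on both sides of 0 at every level, and the deepest falls reach further from 0 than most rises.

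The balance between gains and losses differed with how abundant a transcript was. These shares were read with the main scaling only and were not tested. Below a mean level of 1 on the log2 CPM scale, 5.3% of transcripts were called higher and 11.9% lower in double knockdown cells. Between 1 and 3, the shares were 10.4% higher and 17.2% lower. From 3 to 5 they were 18.1% higher and 19% lower. From 5 to 7 they were 22.1% and 19.6%, and from 7 to 9 they were 24.7% and 21.1%, so that rises were there the more frequent. Among the 283 transcripts at 9 or above, falls were slightly the more frequent, with 61 higher (21.6%) and 70 lower (24.7%). The median absolute change of called transcripts was 2.17 on the log2 scale in the lowest range and 0.58 between 7 and 9. Calls of at least 2-fold were 109 rises and 251 falls below 1, and 121 rises and 279 falls from 1 to 3. There were 141 rises and 198 falls from 3 to 5, and 120 rises and 169 falls from 5 to 7. Between 7 and 9 they were nearly even, with 56 rises and 58 falls, and at 9 or above there were 12 rises and 23 falls. Fewer reads leave a small change at a low level undetectable, which bears on both the share called and the size of what is called.

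As shares of the reads, transcripts called higher took 27.1% and 28.5% of the transcript reads in the double knockdown libraries, against 16.7% in each wild-type library. Those called lower took 17.4% and 15.5% in the double knockdown libraries and 29% and 28.6% in the wild-type libraries. The split follows from how these transcripts were chosen and is a description. Wild-type libraries leaned more on their most abundant messengers: the first 10 transcripts of each library held 5.39% and 5.11% of the reads in double knockdown, against 6.79% and 7.22% in wild type. The single most abundant transcript held 0.795% and 0.682% in double knockdown and 2.15% and 2.26% in wild type.

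Over the whole transcriptome, the double knockdown pair lay further from wild type than replicates lay from each other. The median absolute difference on the log2(CPM + 1) scale was 0.305 to 0.384 between double knockdown and wild-type libraries, against 0.187 within the double knockdown pair and 0.151 within the wild-type pair. The p190A line lay 0.218 to 0.26 from wild type and the p190B line 0.249 to 0.291. Sub-confluent double knockdown cells lay nearer to confluent double knockdown cells, at 0.18 to 0.248, than to sub-confluent wild-type cells. Their distance from confluent wild-type cells was the greatest of these, at 0.436 to 0.536. These distances are descriptions without a test.

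**Figure D2:**
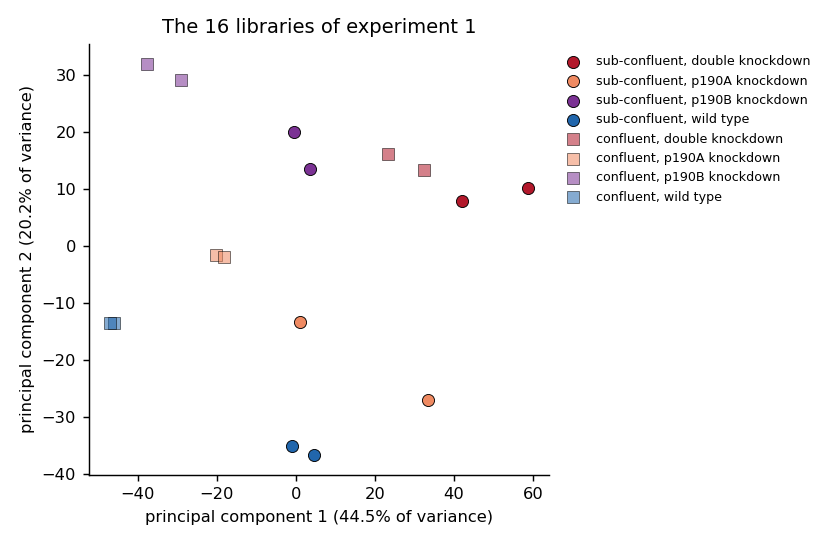
First and second principal components of log2(CPM + 1) over the 16 libraries of experiment 1, with circles for sub-confluent and squares for confluent cultures. The sub-confluent double knockdown libraries have first-component scores of 41.94 and 58.8, against -1.039 and 4.681 for sub-confluent wild type, and lie beside the confluent double knockdown libraries at 32.35 and 23.26, while confluent wild type lies at the other end, at -45.94 and -47.09.

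On the first principal component, which held 44.5% of the variance, the double knockdown and confluence pointed opposite ways from sub-confluent wild type. Confluent wild-type libraries scored below sub-confluent wild type, and sub-confluent double knockdown libraries scored above it. In the double knockdown, p190A and p190B lines, too, confluent libraries scored below the sub-confluent ones of the same line. One of the sub-confluent p190A libraries scored 33.5, near the double knockdown, while its replicate scored 1.054, near wild type.

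For the closest view, 4 transcripts were taken as examples by a fixed rule. It took the largest rise and the largest fall among abundant, non-overlapping calls (1808 higher, 1697 lower), and then the largest in each direction whose change also differed between densities (53 higher, 110 lower). Where that was again the first pick, as it was in both directions, the next one was taken. Because they were chosen for their sub-confluent change, their levels in these 4 libraries are a description. So are their differences between densities, which include that same change and for the second pair also entered the choice.

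ENSCAFT00000028433 had the largest rise. It stood at 365.4 and 303.2 CPM in sub-confluent double knockdown libraries, against 15.99 and 11.67 CPM in wild-type libraries. Both double knockdown values lie far above both wild-type values, and the fitted log2 change was 4.60 (SE 0.17, adjusted p = 3.4e-09). The single knockdown lines were in between: 52.28 and 45.74 CPM with the p190A shRNA and 100.4 and 95.18 CPM with the p190B shRNA. The log2 changes from wild type were 1.83 and 2.83, and the double knockdown minus their sum was -0.06 (SE 0.21, adjusted p = 0.90 for the p190A by p190B interaction). At confluence it reached 193.9 and 205.6 CPM in double knockdown and 26.91 and 31.69 CPM in wild type, a smaller log2 change of 2.77 (adjusted p = 1.2e-07). In experiment 2, which shares no library with the choice, double knockdown had 95, 110 and 108.3 CPM and wild type 22.3, 21.1 and 19.54 CPM, with no overlap and a log2 change of 2.31 (SE 0.06, adjusted p = 1.1e-37). Its mean there was 32.3 ± 0.693 CPM with YAP5SA+S94A added to the double knockdown (SD, n = 3), against 104 ± 8.21 CPM in the double knockdown alone (SD, n = 3).

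ENSCAFT00000009808, the other rise, was abundant in every group. It was at 694 and 880.7 CPM in sub-confluent double knockdown libraries and at 94.71 and 92.35 CPM in wild-type libraries, again without overlap. The log2 change was 3.07 (SE 0.22, adjusted p = 4.3e-07). The p190B line alone had 1190 and 1077 CPM, above both double knockdown libraries, and the p190A line had 438.7 and 268.2 CPM. The double knockdown lay below the sum of the single effects, with an interaction of -2.44 on the log2 scale (SE 0.29, adjusted p = 4.0e-04). At confluence the levels were 924.8 and 717.7 CPM in double knockdown and 234 and 266.6 CPM in wild type, so that the double knockdown pairs overlapped across densities while wild type was higher at confluence. The difference of the effect between densities was 1.36 (SE 0.29, adjusted p = 2.4e-02). That call was lost in 6 of the fits that left out 1 library, with values of 1.18 to 1.55 over all such fits. Experiment 2 gave 304.4, 364.4 and 381.9 CPM in double knockdown against 60.46, 51.49 and 59.83 CPM in wild type, a log2 change of 2.61 (SE 0.10, adjusted p = 3.4e-08).

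The largest fall was that of ENSCAFT00000024055, which was nearly silent in the double knockdown. It had 1 and 4 reads in sub-confluent double knockdown libraries (0.07342 and 0.2345 CPM), against 715 and 562 reads in wild-type libraries (59.56 and 41 CPM). With so few reads the size of the fall is loosely bounded. Scaled for depth, wild type exceeded the double knockdown 298-fold, with a 95% exact interval of 127 to 919 that covers counting error only. The fitted log2 change was -8.19 (SE 0.44, adjusted p = 5.2e-08), and it was -7.70 without double knockdown replicate 1 and -9.25 without replicate 2. The p190B line was also low, at 1.634 and 0.6361 CPM, and the p190A line kept 15.27 and 16.91 CPM. At confluence the levels were 0.9879 and 1.514 CPM in double knockdown and 25.36 and 20.65 CPM in wild type. In experiment 2 the double knockdown had 3.406, 3.852 and 3.923 CPM and wild type 11.4, 11.53 and 12.21 CPM, a log2 change of -1.65 (SE 0.13, adjusted p = 8.6e-18). The direction was thus shared by all 3 comparisons of double knockdown with wild type, and the fitted size differed widely among them.

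ENSCAFT00000013912 was among the wild-type messengers that separate the densities. It stood at 3.598 and 2.697 CPM in sub-confluent double knockdown libraries and at 262.1 and 146.3 CPM in wild-type libraries, a log2 change of -6.03 (SE 0.32, adjusted p = 5.2e-08). Confluent cells had 1.235 and 2.776 CPM in double knockdown and 14.96 and 14.78 CPM in wild type. The double knockdown was thus low at both densities, and wild type was high only in sub-confluent cultures. Each single knockdown line also lay below wild type, at 9.992 and 14.16 CPM with the p190A shRNA and 34.9 and 38.17 CPM with the p190B shRNA. The difference of the effect between densities was -3.20 (SE 0.50, adjusted p = 6.4e-03), and -2.45 with an adjusted p of 7.7e-02 without confluent double knockdown replicate 2. In experiment 2, double knockdown had 4.302, 2.946 and 3.48 CPM and wild type 13.57, 10.73 and 13.29 CPM. The log2 change was -1.79 (SE 0.12), a smaller fall than in sub-confluent cells. Adding YAP5SA+S94A to the double knockdown there gave 23.9 ± 0.326 CPM, against 3.58 ± 0.683 CPM in the double knockdown (SD, n = 3 each). That was a log2 difference of 2.72 (adjusted p = 1.0e-29), to a level above wild type at 12.5 ± 1.57 CPM (SD, n = 3).

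**Figure D3:**
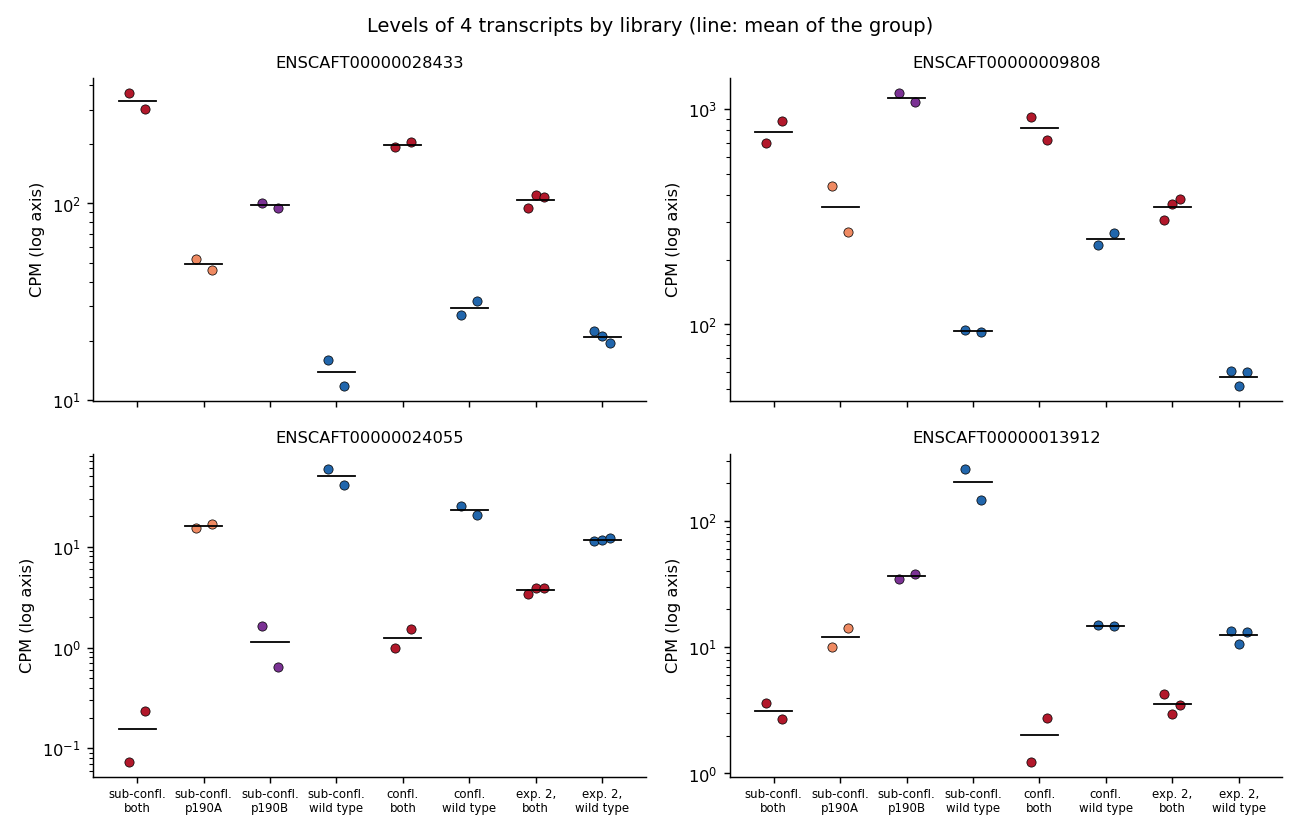
Level of the 4 example transcripts in CPM (log axis) in each library of 8 groups, with the line at the mean of the group. In every panel both double knockdown libraries of the sub-confluent cells lie outside the range of sub-confluent wild type, and the double knockdown lies on the same side of wild type at confluence and in experiment 2.

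The double knockdown was then set beside the single knockdowns, which share the wild-type libraries with it. The p190A line had 1263 calls, 9.83% of 12845, with 599 higher (4.66%) and 664 lower (5.17%). The p190B line had 2316 calls (18%), 1131 higher (8.8%) and 1185 lower (9.23%). Both counts are below the 4467 of the double knockdown, and both depended on single libraries. Dropping wild-type replicate 1 or 2 left 538 or 505 calls for p190A and 1309 or 1100 for p190B, and dropping replicate 1 or 2 of the p190B line left 996 or 1273 for p190B. The interaction of the 2 shRNAs asks whether the double knockdown differs from the sum of the single effects, and it was called for 1245 transcripts (9.69%). Of these, 508 lay above the sum (3.95%) and 737 below it (5.74%). That count is itself loosely fixed: it was 225 when only the sub-confluent libraries were fitted. It was 701 or 503 when wild-type replicate 1 or 2 was dropped, 445 or 601 for p190B, 601 or 2911 for p190A, and 569 without double knockdown replicate 2. Scaling by library totals gave 652 above and 589 below, so the balance between the directions is not settled by these data. The double knockdown line descends from the p190B line, so an effect of adding the p190A shRNA includes that of a further selection.

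The same comparison at confluence used 4 other libraries and gave 5599 calls (43.6%), 2819 higher (21.9%) and 2780 lower (21.6%). Of the 2146 sub-confluent rises, 1429 (66.6%) were also called higher at confluence and 18 called lower. Of the 2321 sub-confluent falls, 1614 (69.5%) were also called lower at confluence and 37 called higher. Read from the confluent side, those transcripts are 50.7% of the confluent rises and 58.1% of the confluent falls. Across 12845 transcripts, the log2 changes at the 2 densities had a Pearson r of 0.75 and a Spearman coefficient of 0.67, a description across transcripts, which are not independent.

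Experiment 2 repeated the confluent comparison with tighter replicates (biological coefficient of variation 0.0301) and called 9180 of 13061 transcripts (70.3%). Of the sub-confluent rises tested there, 1466 of 2112 (69.4%) were called higher and 253 (12%) lower. Of the falls, 1628 of 2303 (70.7%) were called lower and 296 (12.9%) higher. The reverse shares were 32.3% of the experiment 2 rises and 37.1% of its falls. With 35.2% of all transcripts called higher and 35.1% called lower in experiment 2, agreement in direction is read against that background. Called the same way in all 3 comparisons were 1164 rises and 1321 falls of the 12552 transcripts tested in both experiments, and 168 rises and 367 falls were at least 2-fold in each.

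The size of the sub-confluent effect followed the size of the effect in experiment 2. The 103 transcripts that fell more than 8-fold in experiment 2 (median log2 change -3.85) had a sub-confluent median of -2.85 with both shRNAs, -1.18 with the p190A shRNA and -0.98 with the p190B shRNA. Among them 60.2% were called lower in the sub-confluent double knockdown, where 18.1% of all transcripts were. At the other end, the 39 transcripts that rose at least 8-fold (median 3.63) had sub-confluent medians of 1.86 with both shRNAs, 0.74 with the p190A shRNA and 1.17 with the p190B shRNA. Of these 71.8% were called higher, where 16.7% of all transcripts were. Between these ends the medians were graded: transcripts that fell by 1 to 2 log2 units in experiment 2 had a median of -0.94 in the sub-confluent double knockdown, and those that rose by 1 to 2 had 0.61. In every bin the sub-confluent median was nearer to 0 than that of experiment 2. The bins were cut on the experiment 2 values, so medians nearer to 0 in other libraries are partly expected from the choice alone. The confluent medians of experiment 1 were -3.77 in the lowest bin and 2.80 in the highest. They too were nearer to 0 than experiment 2, except in the bin from -3 to -2 (-2.52 against -2.35). Whether density plays a part was not tested. The p190A medians of the bins were not read without single libraries. Over all transcripts lowered at least 2-fold in experiment 2, the p190A median was -0.702 without p190A replicate 1. It was -0.205 without replicate 2. For those raised at least 2-fold it was 0.409 and 0.155, so the size of the p190A medians depends on the replicate.

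**Figure D4:**
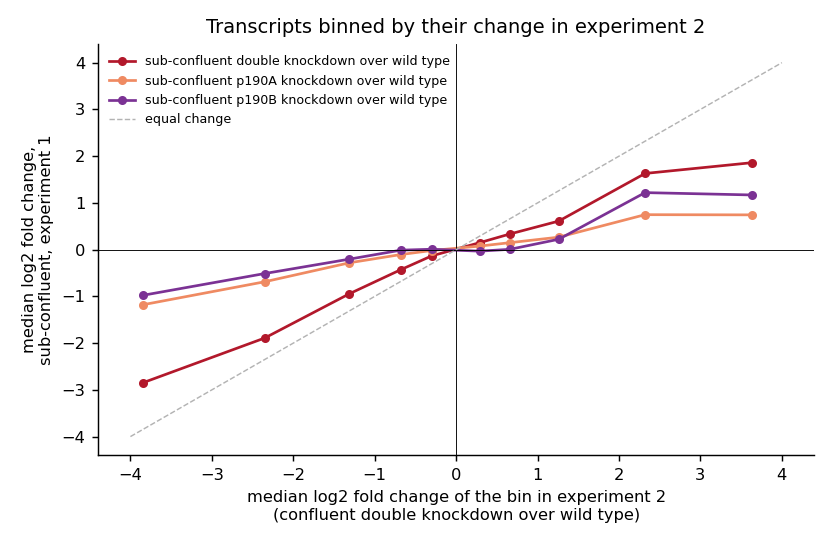
Transcripts in 10 bins of their log2 fold change in experiment 2, with the bin's median there on the x axis and its median sub-confluent log2 fold change in experiment 1 on the y axis, for both shRNAs, the p190A shRNA and the p190B shRNA over the same wild-type libraries. The dashed line marks equal change. The double knockdown runs from -2.85 in the lowest bin to 1.86 in the highest, nearer to 0 than the dashed line throughout, and the single knockdowns lie nearer to 0 still at both ends. Because the bins were cut on the experiment 2 values, part of that is expected from the choice. Replicates of the p190A line stood apart, and its bin medians were not read without either.

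As sets, the transcripts at least 2-fold lower or higher with the double knockdown in experiment 2 moved the same way in sub-confluent cells. Of 1102 lowered in experiment 2, 940 passed the filter on low counts in experiment 1. Their median sub-confluent log2 change was -1.16, with 512 called lower (54.5%) and 20 higher (2.13%), where 18.1% and 16.7% of all transcripts were. Of 636 raised, 601 passed the filter, and their median was 0.70, with 314 called higher (52.2%) and 36 lower (5.99%), where 16.7% and 18.1% of all transcripts were. The medians at confluence in experiment 1 were -1.50 and 1.03. By library, the lowered set deviated from its mean over the 8 double knockdown and wild-type libraries of experiment 1 by a median of -0.42 and -0.61 in sub-confluent double knockdown and by 0.23 and 0.14 in sub-confluent wild type. Double knockdown and wild type did not overlap in either set at either density.

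Density was the second axis of the study, and a test asked where the effect of the double knockdown differed between densities. It was called for 420 of 12845 (3.27%). In 109 the effect was the more positive in sub-confluent cells (0.849%) and in 311 the more negative (2.42%). Of the 311, 47 were falls at both densities, larger in sub-confluent cells, and 98 were rises at both, larger at confluence. Of the 109, 22 were rises at both densities, larger in sub-confluent cells, and 20 were falls at both, larger at confluence. The rest had fitted effects of opposite sign at the 2 densities. The test draws on the libraries of both comparisons, so their values are given side by side. Among these 420, 198 were called only at confluence, with a median absolute log2 change of 0.211 sub-confluent and 1.08 confluent. Another 90 were called only in sub-confluent cells, with medians of 0.876 sub-confluent and 0.186 confluent, and 132 were called at both densities. In 53 the effect was called at both densities with opposite signs. The count of 420 rested on single libraries: it was 282 or 273 when replicate 1 or 2 of the sub-confluent double knockdown was dropped, and 103 or 127 when that of sub-confluent wild type was. Dropping replicate 1 or 2 of the confluent double knockdown gave 80 or 248, and doing so for confluent wild type gave 118 or 77. It was 794 when the spread was estimated without replicate 2 of the sub-confluent p190A line.

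Sets that respond to density were taken from the single knockdown lines, whose libraries do not enter the double knockdown comparison. There, 3823 transcripts differed between confluent and sub-confluent cultures (29.8%), 1841 higher at confluence (14.3%) and 1982 lower (15.4%). Of these, 441 were higher and 301 lower by 2-fold or more. The confluence-raised set was somewhat lower in sub-confluent double knockdown cells: its median log2 change from sub-confluent wild type was -0.41, with 114 called lower (25.9%) and 18 higher (4.08%), where 18.1% and 16.7% of all transcripts were. At confluence the same set of 441 had a median of -1.50, with 262 called lower and 9 higher, where 21.6% and 21.9% of all transcripts were. Its median difference between the densities was 1.01, the sub-confluent fall being the smaller, but only 8 of its 441 members were called for that difference, all more positive in sub-confluent cells, where 0.849% of all transcripts were. The sub-confluent median depended on single libraries and on the fold: it was -0.62 without double knockdown replicate 1, -0.22 without replicate 2 and -0.20 with no minimum fold. Among the 87 members of at least 4-fold the median was -0.52. Of these, 18.4% were called lower, near the share of all transcripts, and 1.15% higher, below that share. The confluence-lowered set had a sub-confluent median of 0.09, with 60 called higher (19.9%) and 46 lower (15.3%), close to the shares of all transcripts. At confluence its median was 1.11, with 161 of the 301 called higher and 27 lower, where 21.9% and 21.6% of all transcripts were. Of its 301 members, 63 were called for a difference between densities, all with the more negative effect in sub-confluent cells, where 2.42% of all transcripts were. The sub-confluent median of that set was -0.10 without double knockdown replicate 2, so it has no settled direction.

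**Figure D5:**
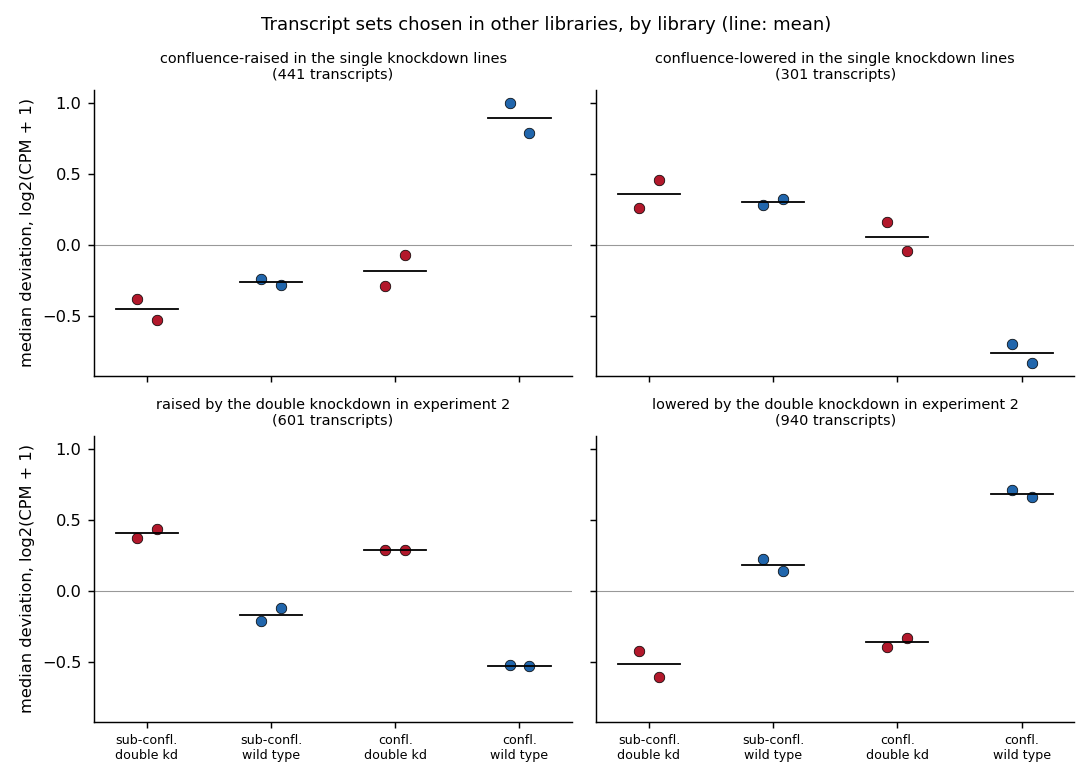
Median over each set of the deviation of log2(CPM + 1) from the transcript's mean over the 8 libraries shown, with 1 point per library and a line at the mean of the pair. Of the confluence-raised set, sub-confluent double knockdown lies at -0.38 and -0.53, below sub-confluent wild type at -0.25 and -0.28, while confluent wild type stands alone at 1.00 and 0.78. The sets raised or lowered by the double knockdown in experiment 2 separate double knockdown from wild type at both densities.

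Levels by library show which groups set these medians. The confluence-raised set stood at -0.38 and -0.53 in sub-confluent double knockdown, -0.25 and -0.28 in sub-confluent wild type, -0.29 and -0.07 in confluent double knockdown and 1.00 and 0.78 in confluent wild type. For the confluence-lowered set, sub-confluent double knockdown was at 0.26 and 0.46, sub-confluent wild type at 0.28 and 0.32, confluent double knockdown at 0.16 and -0.05 and confluent wild type at -0.70 and -0.83. In both sets confluent wild type stood apart, at 0.78 or more in one and -0.70 or less in the other, while the other 3 groups lay between -0.53 and -0.07 in the raised set and between -0.05 and 0.46 in the lowered set. One of the sub-confluent p190A libraries stood apart from its replicate and took part in choosing these sets. Chosen without it, the sets had sub-confluent medians of -0.51 over 214 transcripts and 0.05 over 157.

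Sets that differed with the YAP1 constructs came from experiment 2. Libraries with YAP5SA+S94A added to the double knockdown differed from the double knockdown alone in 6694 transcripts (51.3%), of which 3381 were higher (25.9%) and 3313 lower (25.4%) with it. Of the 339 transcripts at least 2-fold higher with YAP5SA+S94A, 297 were tested in experiment 1, and they had a sub-confluent double knockdown median of -1.83, with 204 called lower (68.7%) and 4 higher (1.35%), where 18.1% and 16.7% of all transcripts were. Their medians were -0.67 with the p190A shRNA and -0.82 with the p190B shRNA, over the same wild-type libraries. The 247 at least 2-fold lower with YAP5SA+S94A had 217 tested, a median of 0.95 and 112 called higher (51.6%), against 24 lower (11.1%), beside the same 16.7% and 18.1% of all transcripts. The sets of this contrast and those of the double knockdown in experiment 2 share the double knockdown libraries of experiment 2, so they are not separate lines of evidence.

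TEAD binding was varied by the contrast of libraries labelled YAP5SA with those carrying YAP5SA+S94A, which differed in 7090 transcripts (54.3%), of which 3626 were higher (27.8%) and 3464 lower (26.5%) in the libraries labelled YAP5SA. Because the labels of the first group conflict, the contrast may hold the presence of the shRNAs as well as TEAD binding, and the 2 cannot be told apart. It also shares the YAP5SA+S94A libraries with the contrast of YAP5SA+S94A with the double knockdown, so their sets are not separate lines of evidence. Of 847 transcripts at least 2-fold higher in the libraries labelled YAP5SA, 685 were tested, with a sub-confluent double knockdown median of -0.71, 270 called lower (39.4%) and 73 higher (10.7%), where 18.1% and 16.7% of all transcripts were. At confluence their median was -1.07. Of 348 at least 2-fold lower, 328 were tested, with a median of 0.09, 74 called higher (22.6%) and 69 lower (21%), near the 16.7% and 18.1% of all transcripts. The median of that second set was -0.12 without double knockdown replicate 1 and -0.04 when only changes of at least 4-fold were taken, so its direction is not settled.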

How the data were processed

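For each sample the authors deposited raw counts of reads per Ensembl dog transcript, in whole numbers, followed by 5 summary rows. Per the submitters' processing notes, STAR 2.3.1n, HTSeq 0.6.0, DESeq2 1.4.5 and CanFam3.1 were used, without stated roles. RNA came from TruSeq mRNA libraries read as single reads, per the labels' protocols. The sources used here do not say whether reads were counted by strand, so overlapping and antisense transcripts are uncertain. In the 4 sub-confluent libraries, the summary row for reads outside transcripts held 21.18% to 21.34% of uniquely aligned reads. Ambiguous reads made up 21.76% and 21.21% in the double knockdown libraries and 23.13% and 22.9% in the wild-type libraries. The part of that difference in the results was not tested. These summary rows entered neither library sizes nor tests.

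From the counts, the 16 libraries of experiment 1 were fitted with 8 group means in edgeR 4.0.16 (R 4.3.3; filterByExpr, TMM scaling, robust quasi-likelihood F-test, Benjamini-Hochberg adjustment), so that all groups share 1 estimate of spread, and the 11 distinct libraries of experiment 2 were fitted separately. The files of YAP5SA replicates 1 and 2 were identical and entered once. Levels are TMM-scaled CPM. SEs were derived from the F statistic. The code was tested on simulated counts.

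None of the 29884 identifiers was found among the 43286 dog genes of the reference table, so no gene list or marker was run. Examples were taken from called transcripts whose mean log2 CPM reached 3, with no overlap between the groups: the largest rise and fall, then the largest whose density interaction was called with the same sign. Where the latter was the same transcript, the next one was taken. The members, sets and rules were chosen with earlier results of these data known. Alternatives were RLE and library-total scaling, other count filters, DESeq2 1.42.0, limma-voom (limma 3.58.1), fits of fewer groups, replicate blocks, other fold minimums and leaving out each library.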

Additional observations from a re-analysis of the deposited data

Results flagged for a closer look

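The effect of the double knockdown differed between sub-confluent and confluent cells for 420 transcripts by the interaction test of edgeR (adjusted p under 0.05, 3.27% of those tested). The 4 example transcripts are among them, and ENSCAFT00000009808 and ENSCAFT00000013912 were chosen for having such a difference. All 4 were chosen for a large sub-confluent change, which is part of this test, so their differences between densities are descriptions. All 4 had the same sign at both densities and the larger effect in sub-confluent cells. That held for 69 of the 420, while 118 had the same sign and the larger effect at confluence. The effect of ENSCAFT00000028433 was 1.83 log2 units more positive in sub-confluent than in confluent cells (adjusted p = 3.3e-03), and that of ENSCAFT00000009808 was 1.36 more positive (adjusted p = 2.4e-02). For ENSCAFT00000024055 the effect was more negative in sub-confluent cells, at -4.03 (adjusted p = 8.2e-03), and for ENSCAFT00000013912 it was -3.20 (adjusted p = 6.4e-03). The size for ENSCAFT00000024055 is loosely bounded, as its sub-confluent double knockdown libraries had 1 and 4 reads. With 2 libraries a group, no library could be tested as standing apart within its group.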

How the results depend on the processing

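Chosen after seeing the data were the leave-one-out fits and the replicate block of experiment 2, and the set medians without single libraries. So were the sets raised or lowered by the double knockdown in experiment 2, at every fold minimum. The 4467 sub-confluent double knockdown calls were 4443 with RLE factors, 4509 with library totals, 4184 with DESeq2, 3675 when fitted on its own 2 groups and 2740 to 5006 on leaving out 1 library. Its calls at least 2-fold numbered 1113 to 1770, those at confluence 3741 to 6008 and those of experiment 2 8722 to 8820 on leaving out 1 library. Leaving out 1 library gave 505 to 1368 calls for p190A, 996 to 2898 for p190B, 445 to 2911 for the interaction of the shRNAs and 77 to 794 for that with density. Without the count filter the interactions had 2018 and 1213 calls, and DESeq2 gave 707 for density. Fitting only the compared groups gave 228 for p190A and 225 for the shRNA interaction, and one of the 8 sub-confluent libraries 517 for p190A, 1348 for p190B and 225 for that interaction. The labels give the replicate numbers no meaning. Deviations of same-numbered libraries correlated at 0.183 to 0.437 among sub-confluent groups, 0.225 to 0.603 among confluent groups and -0.241 to 0.071 across densities, a hint from the data, not the labels, of a batch shared within a density. A replicate block gave 4788 double knockdown calls and a replicate block within density 5699, with 2225 for p190A, 3570 for p190B, 2748 for the shRNA interaction and 1319 for density. Sub-confluent set medians with a 4-fold minimum and with none were -2.14 and -0.32 for the set lowered in experiment 2, 1.68 and 0.25 for the raised one, -3.55 and -0.36 for that higher with YAP5SA+S94A, 2.04 and 0.30 for that lower with it, and -1.49 and -0.22 for that higher with YAP5SA. The confluence-lowered set reversed to -0.41 at 4-fold and the set lower with YAP5SA to -0.0383. The confluence-raised set had -0.52 at 4-fold and -0.20 with no minimum. The cause was not tested. On leaving out 1 library, medians ran from -0.62 to -0.22 for the confluence-raised and -0.10 to 0.20 for the confluence-lowered set, -0.97 to -0.64 and -0.12 to 0.19 for those higher and lower with YAP5SA, -2.26 to -1.57 and 0.90 to 1.08 for those higher and lower with YAP5SA+S94A, and 0.68 to 0.77 and -1.43 to -0.99 for those raised and lowered in experiment 2. For the example transcripts, 297 alternative values kept direction and call, 7, all density interactions, lost the call, and 0 reversed.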
